A study of Caenorhabditis elegans with 6 samples.

Results

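Rab proteins are small GTPases that mark the membranes of a cell and steer the traffic between them. Bound to GTP, a Rab sits on its membrane and recruits effectors, and bound to GDP it is drawn off by a dissociation inhibitor. Guanine nucleotide exchange factors switch Rabs on and GTPase activating proteins, most of which carry a TBC domain, switch them off. In neurons this traffic supplies axons and dendrites, recycles receptors and readies vesicles for release. Here 8 Rab genes of *Caenorhabditis elegans* were followed, and 6 of them were among the 5739 genes of the authors' deposited table. These were rab-1 (traffic between the endoplasmic reticulum and the Golgi), rab-5 (early endosomes), rab-6.2 (Golgi), rab-7 (late endosomes and lysosomes), rab-11.1 (recycling endosomes) and rab-37, a relative of mammalian Rabs of secretory granules. rab-8 and rab-10, which act in secretion and endocytic recycling, were not listed. The members were named with values of this table known, and rab-37 was chosen by its fitted level in alg-2(ok304), so that its level is described and was not tested.

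Polysomes of neurons were compared between worms carrying alg-2(ok304), an allele of an Argonaute that binds miRNAs, and wild-type worms, with 3 libraries in each of the 2 groups. Worms of both groups were at the L4 larval stage and were grown at 20 °C in pools of 50000 to 100000 according to the labels. For the polysome pulldown, the methods of the paper give larger pools than these. Both groups carried a single-copy transgene in which the rgef-1 promoter, active across the nervous system, drives a tagged RPL-18. The ribosomes that carry this protein were pulled from lysates of whole animals with beads against FLAG, and the RNA on them was sequenced. In the study's strain list the strain with alg-2(ok304) has an HA tag, whereas the methods give FLAG, and the headers of the 3 alg-2(ok304) columns name a knockout of ALG1, which no label uses.

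The value of a library in the table was not a read count. Library 2 stood at 1.17 times and library 3 at 2.24 times library 1 in every gene above 0 in alg-2(ok304), and these ratios were 1.40 and 1.52 in wild type. Each column is therefore 1 fitted level per group, rescaled for the library, and its unit is called fitted reads here. It carries no spread between replicates, so no error, interval or p-value could be computed, and every difference below is a description of 2 fitted profiles. Unless given per library, values are sums over a group's 3 libraries. The columns summed to between 4769250 and 10706566 fitted reads in alg-2(ok304) and between 11656552 and 17692391 in wild type. Ribosomal RNA genes took 85.1% of this in alg-2(ok304) and 97.9% in wild type. Without these and genes within 2 kb of them, the columns held 608184 to 1365323 in alg-2(ok304) and 108700 to 164986 in wild type. Wild type thus had the larger totals but the smaller sums outside ribosomal RNA. What part this has in the zeros of wild type was not tested. The depth of sequencing is unknown. A zero cannot be read as absence. Of the 5739 genes, 953 (16.6%) were listed at 0 in both groups and 2785 (48.5%) at 0 in wild type, among them 3 of the 82 genes listed for cytoplasmic ribosomal proteins, which every cell uses. The authors' average log2 CPM (counts scaled to a common library size) of the 953 genes ran between -3.96 and 1.77. Levels in such lysates mix the number of neurons, or of other cells carried along, with the RNA of each, and the one cannot be told apart from the other. Among 15 neuronal markers 5 were listed, at 1.13 to 25.7 fitted reads in alg-2(ok304) and 0 to 5.81 in wild type, whereas rgef-1 and rab-3, the Rab of synaptic vesicles, were not. All 10 body wall muscle markers were listed, at 17.8 to 353 fitted reads in alg-2(ok304) and 0 to 241 in wild type. Outside ribosomal RNA genes and genes within 2 kb of them, the muscle markers summed to 518 CPM in alg-2(ok304) and 1778 in wild type, and the 6 of 7 hypodermal markers listed to 97.7 CPM in alg-2(ok304) and 728 in wild type. The 5 neuronal markers summed to 22.4 CPM in alg-2(ok304) and 22.6 in wild type, and the 4 of 7 intestinal markers listed to 226 CPM in alg-2(ok304) and 212 in wild type. Gene by gene, the median log2 ratio of the muscle markers was -0.72 on the scale defined below and 2.30 by the totals of all genes, so that its direction depends on the scale. On the first of these, the medians for the neuronal, hypodermal and intestinal markers were 0.91, 1.25 and 2.08. The median over all genes above 0 in a group was 1.08. All these medians carry a pseudocount of 0.5 fitted reads, which sets the ratio of genes listed at 0 in a group. The hypodermal median has the opposite sign to its sum. What part other tissues have in the levels of Rab genes was not tested. The targeted gene, alg-2, had 11.11 fitted reads in alg-2(ok304) and 16.6 in wild type. Without a pseudocount, its log2 ratio was -2.51 on the scale defined below and 0.54 by the totals of all genes. Its direction thus depends on the scale. These values do not check the labels, since reads outside the deleted stretch count as well.

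rab-37 held nearly all fitted reads of the family. This gene (WBGene00004285) lies on the minus strand of chromosome X, at 4227650 to 4235852 of WBcel235, with 6 annotated transcripts and 1826 bases of exon, and no annotated gene overlaps it. It was listed at 6907, 8106 and 15506 fitted reads in the alg-2(ok304) libraries, against 0, 0 and 0 in the wild-type libraries. With 1 fitted level per group and wild type at 0, the columns of the groups were bound not to overlap. The order of the alg-2(ok304) libraries is that of their factors alone. No fold is given against a group listed at 0. Its sum of 30519 fitted reads made up 99.8% of the members' total in alg-2(ok304) and stood 731 times above that of rab-11.1, the next member. Per kb of exon, rab-37 had 16714 fitted reads in alg-2(ok304), 493 times the 33.9 of rab-11.1. Outside the ribosomal RNA genes and the genes within 2 kb of them, it took 1.14% of the fitted reads of alg-2(ok304). There it ranked 19 among 4462 genes above 0 by fitted reads and 25 per kb of exon, where the median gene had 7.62 fitted reads per kb. The authors' average log2 CPM of rab-37 was 5.97.

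**Figure D1:**
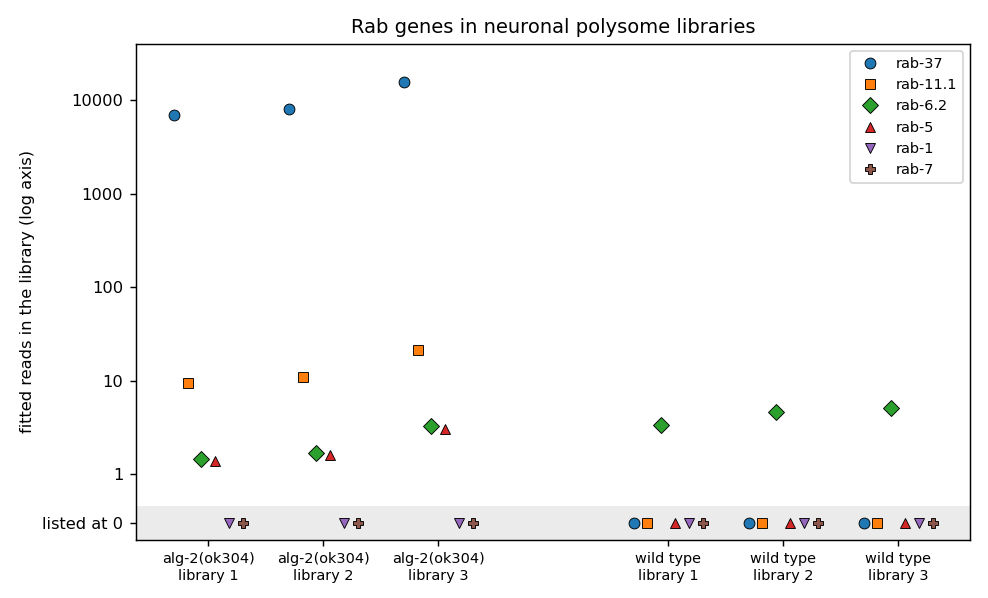
Fitted reads (log axis) of the 6 listed Rab genes in each of the 3 alg-2(ok304) and 3 wild-type libraries, each point 1 gene in 1 library, with the grey band for genes listed at 0. rab-37 stands at 6907 to 15506 in alg-2(ok304), rab-11.1 at 9.45 to 21.2, and only rab-6.2 is above 0 in wild type.

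The other members stood far lower. rab-11.1 (WBGene00004274; chromosome I, 108682 to 110057), whose product acts at the recycling endosome, had 9.45, 11.09 and 21.2 fitted reads in the alg-2(ok304) libraries and was listed at 0 in the 3 wild-type libraries. Its sum of 41.8 lay at percentile 79.0 of the 4491 genes above 0 in alg-2(ok304). rab-5 (WBGene00004268; chromosome I, 9308442 to 9310221), the Rab of early endosomes, had 1.38, 1.62 and 3.09 fitted reads in the alg-2(ok304) libraries and was likewise listed at 0 in wild type. Both genes have the pattern of rab-37, at levels that for rab-5 come to a few reads in all. Its sum of 6.08 fitted reads lay at percentile 28.3, beside a smallest sum above 0 of 0.853 in the table.

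rab-6.2 (WBGene00004270; chromosome X, 17222475 to 17224465), a Rab of the Golgi, was the only member above 0 in both groups. It had 1.46, 1.71 and 3.27 fitted reads in the alg-2(ok304) libraries and 3.35, 4.68 and 5.09 in the wild-type libraries. Its highest alg-2(ok304) value lies below its lowest wild-type value, but the columns carry the factors of their libraries. With 1 fitted level per group, this shows nothing of replicates. The sums were 6.43 and 13.1 fitted reads, or 7.05 per kb of exon in alg-2(ok304) and 14.4 in wild type. To compare the groups, the median log2 ratio of the 2659 genes above 0 in both, 1.93, was taken as no change. On this scale the log2 ratio of rab-6.2, alg-2(ok304) over wild type, was -2.96. When the totals of all genes, ribosomal RNA included, set the scale, it was 0.086, so that the direction of rab-6.2 depends on the scale.

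rab-1 (WBGene00004266; chromosome V, 1262629 to 1263989) and rab-7 (WBGene00004271; chromosome II, 11965523 to 11966931) were listed at 0 in all 6 libraries. Both encode Rabs that act in most cells. Their authors' average log2 CPM, -2.10 and -2.15, nevertheless stood beside the -2.10 of rab-5 and above the -2.70 of rab-6.2, both of which are above 0. rab-7 is overlapped on the same strand by W03C9.5, which had 1.21 fitted reads in alg-2(ok304) and 0.979 in wild type. Among the listed members, rab-37 and rab-11.1 reached 1 CPM of the column totals, in the 3 alg-2(ok304) libraries, whereas the minimum stated for the table is 1 CPM in 2 or more libraries. By fitted reads per kb in alg-2(ok304), the members thus ran rab-37 (16714), rab-11.1 (33.9), rab-6.2 (7.05) and rab-5 (5.63), with rab-1 and rab-7 at 0. With no spread between replicates, it cannot be said which neighbours in this order differ.

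A gene was counted as past 4-fold where its log2 ratio, with a pseudocount of 0.5 fitted reads, lay more than 2 from no change. Log2 ratios given for single genes carry no pseudocount unless stated. Of the 4 members above 0 in a group, 3 were past 4-fold on the side of alg-2(ok304), where 34.2% of the 4786 genes above 0 in a group were. The remaining member, rab-6.2, was past 4-fold on the side of wild type, where 15.2% were. Scaled by the totals of all genes, 72.8% of the genes were on the side of alg-2(ok304) and 5.31% on that of wild type. Being listed above 0 in alg-2(ok304) alone, as rab-37, rab-11.1 and rab-5 were, held for 38.3% of these genes, and the opposite, listed above 0 in wild type alone, for 6.16% and for 0 members. The pattern as such is therefore common in this table. The level of rab-37, which chose it, is what sets it apart from rab-5 and rab-11.1.

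**Figure D2:**
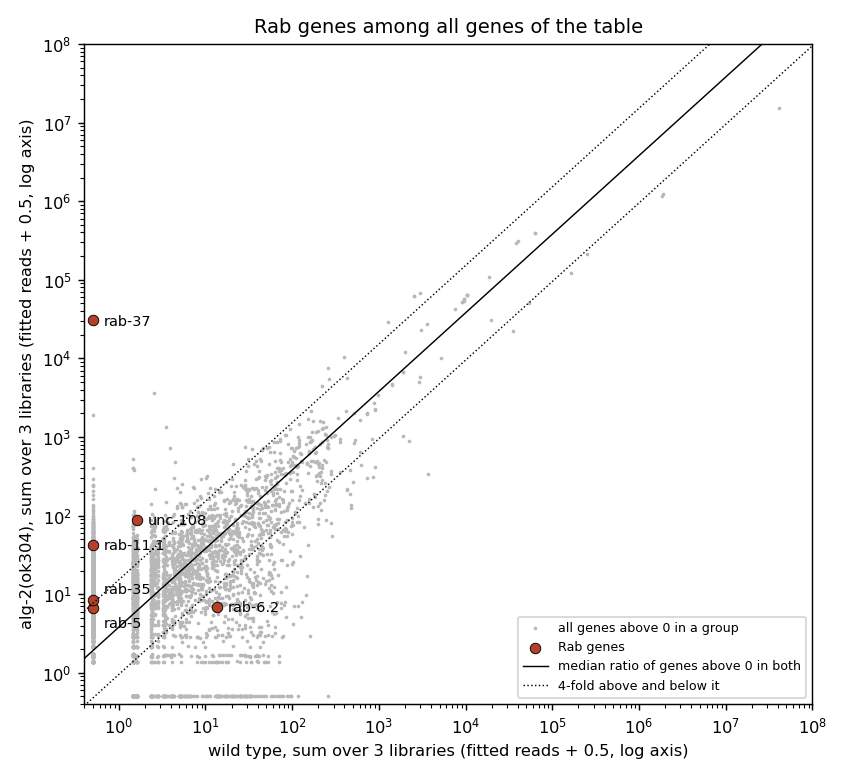
Sum of fitted reads over the 3 libraries, plus 0.5, in alg-2(ok304) (vertical) and wild type (horizontal), both on log axes, for the 4786 genes above 0 in a group (grey) and the Rab genes among them (red). The solid line is the median log2 ratio of 1.93 and the dotted lines lie 4-fold from it, and rab-37 stands at 30519 fitted reads on the left edge, where genes listed at 0 in wild type are drawn.

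The genes most like rab-37 were those listed at 0 in wild type with the highest fitted reads in alg-2(ok304), a likeness over 2 groups only. The 1832 genes above 0 in alg-2(ok304) alone had 57476 fitted reads there, of which rab-37 had 53.1%, and their median was 8.26. mrp-6, an ABC transporter of the multidrug resistance protein family, came next with 1888 fitted reads, so that rab-37 stood 16.2 times above it. The cuticle collagen gene col-14 had 398 fitted reads and overlaps another listed gene, C46A5.4. The methods do not state how reads at such an overlap were counted. The last of the 5 were snrp-40.1, tag-250 and F14F7.4, with 294, 244 and 243 fitted reads, and none of these is a Rab.

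mrp-6 also lies close to rab-37. It occupies 4177989 to 4186756 of chromosome X on the same strand, 40.9 kb from rab-37. Of the 14 genes annotated between the 2, 8 of them protein coding, the table lists 1. This is vha-12, a subunit of the vacuolar proton pump, with 57.6 fitted reads in alg-2(ok304) and 6.32 in wild type and a log2 ratio of 1.26. On the other side, the nearest listed gene, F48D6.4 at 10.7 kb, had 35.3 fitted reads in alg-2(ok304) and 2.90 in wild type, a log2 ratio of 1.68. C52B9.4 had 2.83 in alg-2(ok304) and was listed at 0 in wild type, and ets-9, an ETS family transcription factor gene, had 13.3 in alg-2(ok304), against 0.944 in wild type. Beyond mrp-6, ZK470.2 had 10.4 fitted reads in alg-2(ok304) and 10.7 in wild type, a log2 ratio of -1.98. Its direction depends on the scale, since the totals of all genes raise every log2 ratio by 3.04. The levels of rab-37 and mrp-6 are thus not shared by the listed genes beside and between them.

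**Figure D3:**
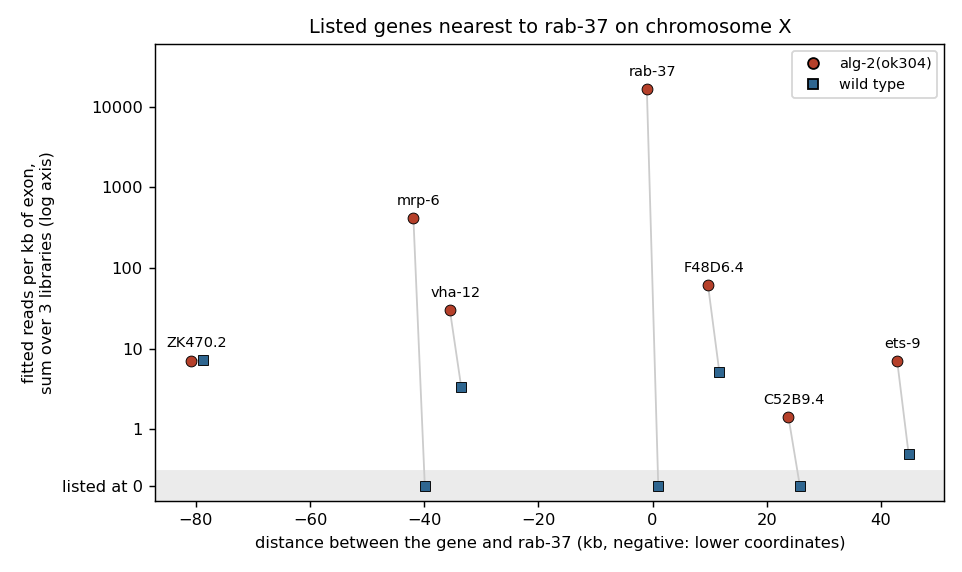
Fitted reads per kb of exon (log axis) in alg-2(ok304) (circles) and wild type (squares) for rab-37 and the 3 nearest listed genes on each side of it, against their distance from it in kb, with the pair of symbols of a gene drawn 1 kb to either side of its place. rab-37 stands at 16714 and mrp-6 at 420 in alg-2(ok304), both are listed at 0 in wild type, and vha-12 between them has 30.2 in alg-2(ok304) and 3.32 in wild type.

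The rest of the Rab family was read from a list of 23 genes that holds the members. Of these, 8 were listed, the 6 members with unc-108 and rab-35. unc-108, which encodes the worm RAB-2 of dense core vesicle maturation, had 88.3 fitted reads in alg-2(ok304) and 1.11 in wild type, a log2 ratio of 4.39 (3.64 to 7.43 over the 7 scales tried). Its wild-type sum lies near 0.942, the smallest above 0 in wild type, so that the size of this ratio rests on 1.11 fitted reads. The range over the scales does not cover this limit. In alg-2(ok304), unc-108 stood above rab-11.1, also per kb of exon, at 77.2 fitted reads. rab-35, a Rab of endocytic recycling, had 8.04 fitted reads in alg-2(ok304) and was listed at 0 in wild type. Of the 6 Rab genes above 0 in a group, 5 were past 4-fold on the side of alg-2(ok304) and 1, rab-6.2, on the side of wild type, beside 34.2% and 15.2% of the 4786 genes. Without rab-37, which was picked for its level, these were 4 and 1 of 5. The median log2 ratio with the pseudocount was 3.66, or 3.21 without rab-37, beside 1.08 for the 4786 genes, but 4 of the 6 were listed at 0 in wild type, so that the pseudocount sets their ratio. Not listed were rab-3, rab-6.1, rab-8, rab-10, rab-11.2, rab-14, rab-18, rab-19, rab-21, aex-6 (the worm RAB-27), rab-28, rab-30, rab-33, rab-39 and glo-1, a Rab of gut granules.

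The proteins that control Rabs or act for them were read from a list of 41 genes, 39 of which matched an annotated gene and 20 of which were listed. Of the 18 above 0 in a group, 6 were past 4-fold on the side of alg-2(ok304) and 2 on the side of wild type. These were near the 34.2% and 15.2% of the 4786 genes. The median log2 ratio of the 18 with the pseudocount was 0.94, beside 1.08 for the 4786 genes. Among the activators, rabx-5, whose product is the worm Rabex-5 and switches on RAB-5, had 11.9 fitted reads in alg-2(ok304) and 60.9 in wild type, a log2 ratio of -4.29 (-5.04 to -1.24 over the 7 scales). Y39A1A.24, which overlaps rabx-5 on the same strand, was listed at 0 in alg-2(ok304) and at 1.10 in wild type. rab-5, with 6.08 fitted reads in alg-2(ok304) and 0 in wild type, lay on the other side. Its level is of a few reads, and 38.3% of the 4786 genes were above 0 in alg-2(ok304) alone. rme-6, also among the activators, was not listed.

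gdi-1, the GDP dissociation inhibitor that takes Rabs off membranes, had 26.7 fitted reads in alg-2(ok304) and 1.91 in wild type, a log2 ratio of 1.88. It overlaps melo-1 on the opposite strand, which had 64.1 in alg-2(ok304) and 19.9 in wild type, and the methods do not state a strand for the counting. Of the 19 matched genes for GTPase activating proteins, 10 were listed. tbc-17 had the highest level of them, with 184 fitted reads in alg-2(ok304) and 29.6 in wild type, a log2 ratio of 0.70 that turned under 2 of the 7 scales, to -0.046 at the lowest. tbc-3, tbc-11 and tbc-7 had 20.9, 11.7 and 3.49 fitted reads in alg-2(ok304) and were listed at 0 in wild type. tbc-10 was the reverse, listed at 0 in alg-2(ok304) and at 0.946 in wild type.

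Of the 12 effectors, 7 were listed, 3 past 4-fold on the side of alg-2(ok304) and 0 on that of wild type, beside 34.2% and 15.2% of the 4786 genes. rfip-1, a Rab-11 family interacting protein, had the highest level, with 51.9, 60.9 and 117 fitted reads in the alg-2(ok304) libraries, against 1.72, 2.41 and 2.61 in the wild-type libraries. These columns show the ratio of the groups and nothing of replicates. The log2 ratio of 3.16 was 2.41 or more on each of the 7 scales. rab-11.1 was on the same side, at 41.8 fitted reads and listed at 0 in wild type. Of the 4786 genes, 38.3% were likewise above 0 in alg-2(ok304) alone. rilp-1, whose mammalian relative binds Rab7, had 26.9 fitted reads in alg-2(ok304) and was listed at 0 in wild type, as was rabs-5, the worm rabenosyn, at 4.17. The RAB-5 effectors eea-1 and rabn-5 were above 0 in both groups. eea-1 had 36.9 fitted reads in alg-2(ok304) and 8.39 in wild type, a log2 ratio of 0.21 that turned under 2 of the 7 scales. rabn-5, the worm rabaptin, had 33.3 in alg-2(ok304) and 2.89 in wild type, a log2 ratio of 1.60.

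**Figure D4:**
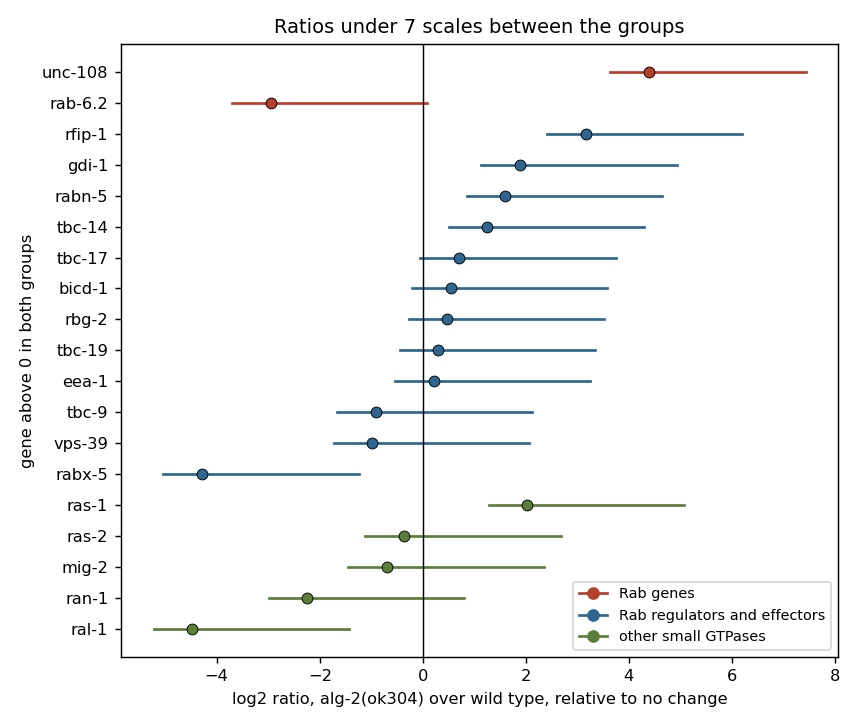
Log2 ratio between the groups, alg-2(ok304) over wild type, relative to no change (0), for the 19 genes matched by symbol in the lists that were above 0 in both groups. Points use the median ratio of genes above 0 in both groups and lines span the 7 scales tried. The line crosses 0 for 11 of the genes, rab-6.2 among them. It does not for unc-108, rfip-1, ras-1, gdi-1, rabn-5 and tbc-14, on the side of alg-2(ok304), and rabx-5 and ral-1, on that of wild type.

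Small GTPases outside the Rab family were read for comparison from 22 genes, of which 20 matched by symbol and 8 of these were listed. Of the 8, 1 was past 4-fold on the side of alg-2(ok304) and 3 on the side of wild type, beside 34.2% and 15.2% of the 4786 genes. The one on the side of alg-2(ok304) was rho-1, a regulator of actin, with 4.22 fitted reads there and listed at 0 in wild type. ral-1, which acts with the exocyst, had 4.83 fitted reads in alg-2(ok304) and 28.3 in wild type, a log2 ratio of -4.48 (-5.23 to -1.43 over the 7 scales). arl-1, a GTPase of the Golgi, was listed at 0 in alg-2(ok304) and at 1.94 in wild type. ran-1, of nuclear transport, had 4.35 fitted reads in alg-2(ok304) and 5.40 in wild type, with a log2 ratio of -2.24 that turned to 0.80 with the totals of all genes. sar-1, which acts in export from the endoplasmic reticulum, had 0.880 fitted reads in alg-2(ok304) and was listed at 0 in wild type. The 2 genes not matched, arf-1.2 and arf-3, are older symbols of arf-1 and arf-5, which were added after their values were seen. arf-1 (WBGene00000182) had 3.34 fitted reads in alg-2(ok304) and 12.4 in wild type, a log2 ratio of -3.82, and arf-5 (WBGene00000183) had 53.6 in alg-2(ok304) and 1.87 in wild type, a log2 ratio of 2.91. With them, 2 of 10 small GTPases were past 4-fold on the side of alg-2(ok304) and 4 on that of wild type. The median log2 ratio with the pseudocount was -0.47 with or without them.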

How the data were processed

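RNA from immunoprecipitated neuronal polysomes of 3 alg-2(ok304) and 3 wild-type pools was sequenced by the authors after low-input library preparation. According to the methods and the submitters' processing notes, reads were trimmed with cutadapt (version 2.10), aligned to WBcel235 with HISAT2, assigned to Ensembl release 96 genes by featureCounts (Subread 2.0.0) and tested in edgeR (version 3.11). The deposited table holds fitted reads per library, an average log2 CPM computed by the authors, and their p-value and FDR, which were not used. The library columns of alg-2(ok304) were assigned by the strain number in their headers, which the strain list gives to that genotype, and by their replicate number.

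The planned test needed counts and was not run. Sums of fitted reads over a group, log2 ratios relative to the median log2 ratio of genes above 0 in both groups, and counts past 4-fold (pseudocount 0.5) were computed with Python 3.11.15, numpy 2.4.6 and pandas 2.3.3. The calculation was tested on simulated counts with 200 genes changed 16-fold, where passing was judged on the scale of genes at 10 reads or more in both groups. The changed genes were not those of few reads. It therefore does not check calls at a few fitted reads or at zeros. Positions and exon lengths come from Ensembl release 115 of WBcel235, in which 5733 of the 5739 identifiers had an entry.

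Members and lists were chosen with earlier results of these data known. The genes named are the members, the other Rab genes, genes of the other lists past 4-fold or above 0 in 1 group, the 5 genes most like rab-37, and the 3 nearest listed genes on each side of it. vha-12 and mrp-6 fall under this rule, while gdi-1, tbc-17, eea-1, rabn-5, arf-1 and arf-5 were added after their values were seen. Other scales, pseudocounts, folds and a minimum level were tried.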

Additional observations from a re-analysis of the deposited data

How the results depend on the processing

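No paired analysis was possible because the library columns hold fitted values without spread between replicates. For the same reason leaving out libraries, DESeq2 and other filters on counts were not run. Levels of a few fitted reads limit rab-5 and rab-6.2 and, among the other genes named, those at or near 0 in wild type. The number of members past 4-fold on the side of alg-2(ok304) was 2 with a pseudocount of 5, at 8-fold and with at least 10 fitted reads in the higher group, where rab-5 lies below the minimum, and 3 under each other setting tried. On the side of wild type, 1 member and 1 Rab gene, both rab-6.2, became 0 with the totals of all genes, the scale recovered from the average CPM column, a pseudocount of 5 and a threshold of 8-fold. Without a pseudocount, the log2 ratio of rab-6.2 was -2.45 on the scale of genes at 10 fitted reads or more in both groups. It was -2.75 by totals without ribosomal RNA genes and -3.69 when genes within 2 kb of these were left out too. By ribosomal protein genes it was -3.71, by the average CPM column -2.11, and 0.086 when all genes, ribosomal RNA included, gave the totals. The counts past 4-fold use the pseudocount, which leaves rab-6.2 short of the cut on the average CPM scale. On the scale of genes above 0 in both groups, its ratio was -2.78 with a pseudocount of 0.5 and -1.88 with 5. With the totals of all genes, 15 regulators and effectors and 4 other small GTPases were on the side of alg-2(ok304) and 0 of either on that of wild type, and no change lay 3.04 lower on the log2 scale. Of all 4786 genes, 72.8% were then past 4-fold on the side of alg-2(ok304) and 5.31% on the side of wild type. With a pseudocount of 5 these shares were 6.06% and 7.84%, and 3 Rab genes, 1 regulator or effector and 0 other small GTPases were on the side of alg-2(ok304), with 0, 1 and 1 on that of wild type. With at least 10 fitted reads in the higher group, 3 Rab genes and 0 other small GTPases were on the side of alg-2(ok304), and 1 regulator or effector and 1 other small GTPase on that of wild type. The scale from the average CPM column left 1 regulator or effector on the side of wild type and put 2 other small GTPases on that of alg-2(ok304), as did the scale of genes at 10 fitted reads (2) and a threshold of 2-fold (2). At 8-fold these were 1 and 0. Chosen after seeing the data, adding arf-1 and arf-5 gave 2 other small GTPases on the side of alg-2(ok304) and 4 on that of wild type, and leaving out rab-37 gave 4 and 1 Rab genes. The cause was not tested.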
